A study of Mus musculus with 5 samples.

Results

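Expression of 48 DNA replication and cell cycle genes was followed while mouse embryonic stem (ES) cells became motor neurons. The genes were listed by name for their known roles and were found on the arrays through the RefSeq accession of each probe. All 48 were matched, out of 19897 named genes on the array, and the probe with the brightest mean over the arrays stood for each gene. Of the 48, 46 were well above background on all 5 arrays by the scanner's own flag, and no spot of theirs was saturated. The exceptions were Ccne2, not well above background at ES and Day7, and Cdk6, not well above background at Day7.

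The 5 samples were wild type, labelled male, and each was hybridised to 1 one-colour Agilent array. ES was the undifferentiated line, and Day2 was embryoid bodies (EBs, floating aggregates of differentiating cells) after 8 hours of retinoic acid (RA). Day3 and Day4 were EBs after 1 and 2 days of RA, and Day7 was labelled as motor neurons (MNs) after 5 days of RA. The labels name Shh as applied together with RA between day 2 and day 5, a span that 5 days of RA does not match. They list the tissue of the Day7 sample as embryoid bodies and name no sorting step, so it is a mixed culture as far as the labels go. No time point was replicated, so changes have no error and no p-value, and a gene counts as risen or fallen only by the size of its change, at 2-fold or more.

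Before a cell divides, the origin recognition complex with Cdc6 and Cdt1 loads the Mcm helicase onto DNA, which licenses each origin for a single round of copying. Cyclins and their kinases then drive entry into S phase and mitosis, with E2F factors switching on the genes for DNA synthesis and Cdk inhibitors holding the kinases back. ES cells are known for a rapid cycle with a short first gap phase, whereas spinal motor neurons leave the cycle when they are born.

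Cell type markers were checked against the labels of the first and last samples. From ES to Day7, 9 of 10 pluripotency genes fell, and the list's median log2 change was -3.60. The exception was Nanog (-0.40), which read 9.98 at Day4 and 8.80 at Day7. From Day4 to Day7, all 7 matched motor neuron markers rose, with a median of 5.06, and 9 of 10 pan-neuronal markers rose, with a median of 6.40. At Day7 all 10 pluripotency and all 10 neural progenitor markers were still well above background, 8 of 10 glial markers were (not Gfap and S100b), and 5 of 10 mesoderm and endoderm markers were. Between Day4 and Day7 the median log2 signal went from 10.27 to 9.19 for the pluripotency list, 12.10 to 11.35 for neural progenitors, 7.93 to 8.62 for glia and 7.64 to 5.03 for mesoderm and endoderm. The median of the changes gene by gene, over genes with a value, was -1.16, -0.01, 0.83 and -2.01 in the same order. Single markers differed from these medians. In the progenitor list 2 rose, Nkx6-1 (1.58) and Vim (from 15.10 to 16.60). In the same list 3 fell, Pax6 (10.28 to 5.17, -5.11), Olig2 (11.47 to 7.35, -4.12) and Sox3 (-2.10). Foxa2 rose from 11.52 to 14.12 (2.60) in the mesoderm and endoderm list, in which 4 fell. In the glial list 3 rose and 1 fell, and Fabp7, also a radial glia gene, rose from 7.76 to 17.45 (9.70). These single markers were named after their values were seen. The part of these cells in the values that follow was not tested. In such bulk samples, fewer dividing cells and less RNA per cell cannot be told apart. Day7 was also the only array on the second slide, and the effect of the slide cannot be told apart from that of time at any step that ends there. The Day2 array differed from the others in its dim range: 86.7% of all probes were well above background on it, against 57.5% to 65.7% on the others. All but 4 members (Ccne2, Cdk6, Cdkn2c and Cenpf) lay there above the 95th percentile of the ERCC control probes, which are spike-in controls.

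Genes that act in S phase and genes that act in mitosis are known to carry different promoter motifs: E2F sites in the former, and the cell cycle homology region (CHR), often with CCAAT boxes, in the latter. Promoters (250 bases before to 50 after the start site, RefSeq, GRCm38.p6) were given for 40 of the 48 genes, and for all but Mcm4, Gmnn, Ccna2, Ccne2, Ccnd1, Ccnd2, Aurkb and Tpx2. These 40 genes had 45 promoter windows. A gene with several windows was counted as holding a motif if any of them did, so counts of promoters below are counts of genes. Both strands were searched for the E2F letters TTTCCCGC, TTTCGCGC, TTTGCCGC and TTTGGCGC, for the CHR letters TTTGAA, and for CCAAT. The sequences below run 5′ to 3′ on the gene's strand from 120 bases before the start site to 30 from it on, with E2F matches in capitals in the first 3 and CHR matches in capitals in the last 4. They are shown as examples of promoters with either motif among genes whose values follow.
Mcm6, chr1:128359676-128359825, minus strand: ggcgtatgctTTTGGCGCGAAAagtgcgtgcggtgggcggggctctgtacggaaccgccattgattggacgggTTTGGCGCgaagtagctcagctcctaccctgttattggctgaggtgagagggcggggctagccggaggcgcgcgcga
Mcm7, chr5:138171854-138172003, minus strand: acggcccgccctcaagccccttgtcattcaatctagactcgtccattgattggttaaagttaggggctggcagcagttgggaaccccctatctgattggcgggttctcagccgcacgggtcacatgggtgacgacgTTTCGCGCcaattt
Orc1, chr4:108579334-108579483, plus strand: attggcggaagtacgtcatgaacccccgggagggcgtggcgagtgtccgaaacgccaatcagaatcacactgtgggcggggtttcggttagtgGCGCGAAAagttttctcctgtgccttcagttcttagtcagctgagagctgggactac
Ccnb2, chr9:70421525-70421674, minus strand: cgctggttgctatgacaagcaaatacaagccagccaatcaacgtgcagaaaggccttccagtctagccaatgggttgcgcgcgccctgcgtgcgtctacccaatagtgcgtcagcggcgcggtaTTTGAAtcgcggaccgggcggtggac
Cdk1, chr10:69352883-69353032, minus strand: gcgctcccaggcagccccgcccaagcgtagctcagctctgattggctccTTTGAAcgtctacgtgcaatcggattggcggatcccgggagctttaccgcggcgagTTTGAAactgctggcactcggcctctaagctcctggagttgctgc
Top2a, chr11:99024160-99024309, minus strand: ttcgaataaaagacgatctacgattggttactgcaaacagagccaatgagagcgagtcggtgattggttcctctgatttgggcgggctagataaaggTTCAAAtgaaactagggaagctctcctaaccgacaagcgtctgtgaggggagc
Cenpf, chr1:189688057-189688206, minus strand: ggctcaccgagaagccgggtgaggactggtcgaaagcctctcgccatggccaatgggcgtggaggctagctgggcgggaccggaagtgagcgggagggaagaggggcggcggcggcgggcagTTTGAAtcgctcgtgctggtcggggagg

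In the Mcm6 window the first capitals are a pair of E2F matches on opposite strands that overlap, starting 110 and 106 bases before the start site, and another lies 47 bases before it. In Mcm7 the match starts 16 bases after the start site and shares its last base with a CCAAT, and in Orc1 it lies on the opposite strand and begins 27 bases before it. The CHR letters in Ccnb2 and Cenpf begin 4 and 2 bases after the start site. Cdk1 holds the CHR letters 71 and 15 bases before its start site and, upstream of the printed window, E2F letters 131 bases before it, so it carries both motifs, and Top2a holds them on the opposite strand 23 bases before. All 7 printed windows also hold CCAAT on 1 strand or the other.

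The E2F letters were found in 7 of the 9 licensing promoters (77.8%) and in 0 of the 12 promoters of mitotic kinase, checkpoint, kinetochore and spindle genes. Among all 27025 genes with a promoter, 2.6% held them. The CHR letters had the opposite distribution, in 8 of 12 mitotic promoters (66.7%) and 1 of 9 licensing promoters (11.1%), Mcm2, against 20.2% of all genes. CCAAT was common to both, in 83.3% of the mitotic and 77.8% of the licensing promoters, against 41.1% of all genes. Each of the 8 mitotic promoters with CHR letters also held CCAAT, a combination found in 8.97% of all genes. In a separate list of 42 other mitosis genes, 22 of 35 promoters held the CHR letters (62.9%) and 5 held the E2F letters. Other groups were less divided. Of the 7 promoters of cyclins A, B and E, Cdk1, Cdk2 and E2F members, 3 held the E2F letters and 3 the CHR letters (42.9% each). E2f2 is counted for both motifs, from different windows. The 13 promoters of other licensing and firing genes held the E2F letters in 4 and the CHR letters in 4 (30.8% each). Of the 21 promoters of other fork and nucleotide genes, 6 held the E2F letters and 2 the CHR letters, and of the 6 DNA synthesis promoters 1 held the E2F letters (16.7%) and 0 the CHR letters. None of the 3 given promoters of the D cyclin and Cdk4/6 group (Ccnd3, Cdk4 and Cdk6) and none of the 3 Cdk inhibitors held either motif. A match describes letters in the sequence, not a bound site, and the motifs were chosen with the expression values known.

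**Figure D1:**
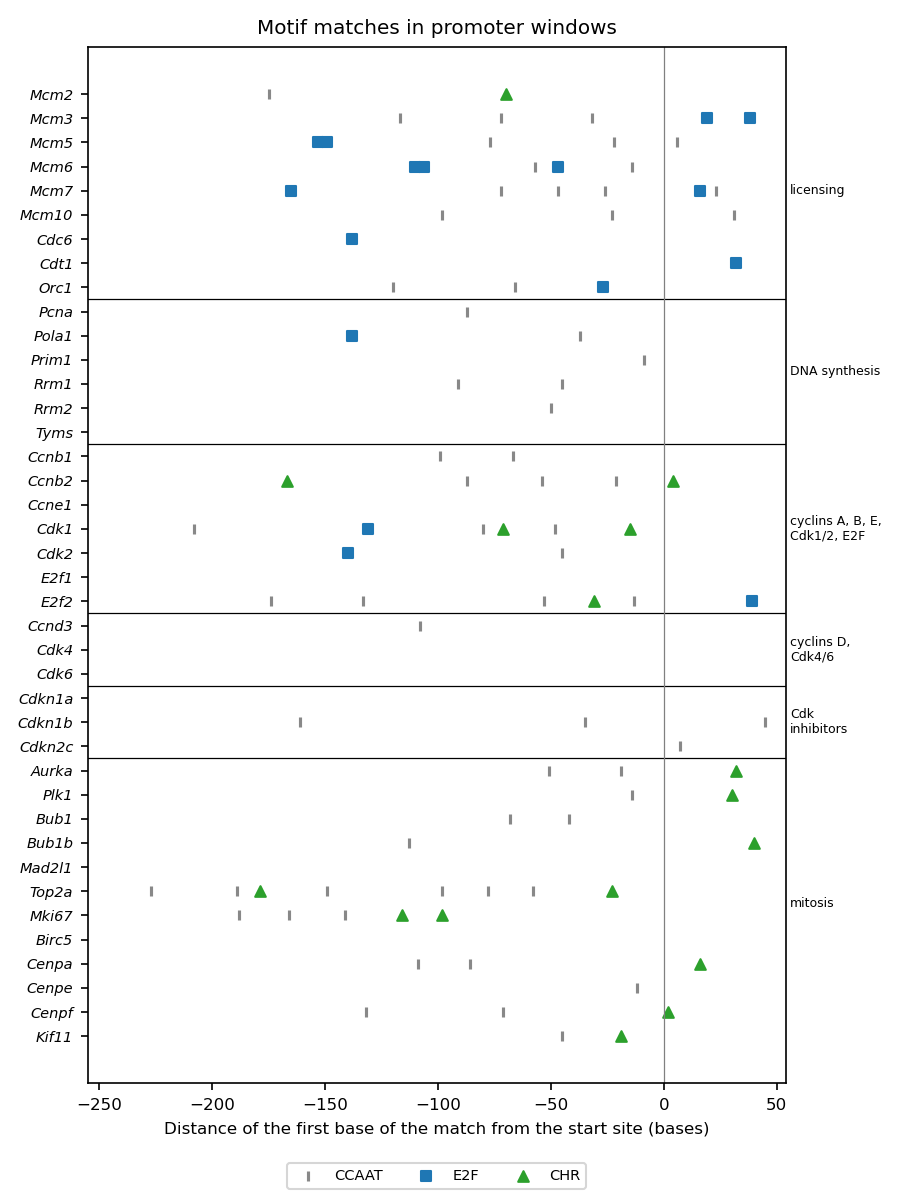
Positions of motif matches in the promoters of the 40 genes with a given promoter, as the distance in bases of the first base of each match from the start site (vertical line), with genes grouped by role. Squares (E2F letters) lie in the upper, licensing block in 7 of 9 genes, and triangles (CHR letters) in the lower, mitotic block in 8 of 12.

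The genes stayed near their ES level up to Day4 and were lower at Day7. From ES to Day4 the median log2 change of the 48 genes was 0.01, and 41 of them lay within 2-fold of ES. Of all genes with a value, 14.4% fell and 17.0% rose at least 2-fold over that interval. From Day4 to Day7, 35 of 48 fell at least 2-fold and 0 rose, while 18.1% of all genes with a value fell and 18.1% rose. The members' median log2 change at that step was -1.45, against -0.12 over all genes. After quantile normalization the falls were of moderate size. By 1.5-fold or more 45 genes fell, 27 fell between 2-fold and 4-fold, 8 by 4-fold or more and 0 by 8-fold. Cdk6, among the 8, has only a bound (at least 4.02-fold). Aurkb passed 8-fold with the 75th percentile shift (-3.06). With the housekeeping shift Ccne1 and Cdk6 (-1.98 each), Cdc6, Orc1 and Mcm10 fell by less than 4-fold. Shares of all genes at the 1.5-fold, 4-fold and 8-fold sizes were not counted. For comparison, the median member spanned 0.63 on the log2 scale over the first 4 arrays.

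Day7 was the lowest of the 5 arrays for 41 of the 48 genes. It was the highest for 1 gene, the Cdk inhibitor Cdkn1b. How many of all genes were lowest or highest at Day7 was not counted, so these counts have no share of all genes beside them. Against ES, Day7 was at least 2-fold lower for 34 of the 47 genes with a value and at least 2-fold higher for 3, with a median of -1.33. Of all genes, 24.4% were lower and 24.8% higher over the same interval, with a median of -0.07. Among the members, 29 were at least 2-fold lower at Day7 than at both ES and Day4. The share of all genes that met both limits was not counted.

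**Figure D2:**
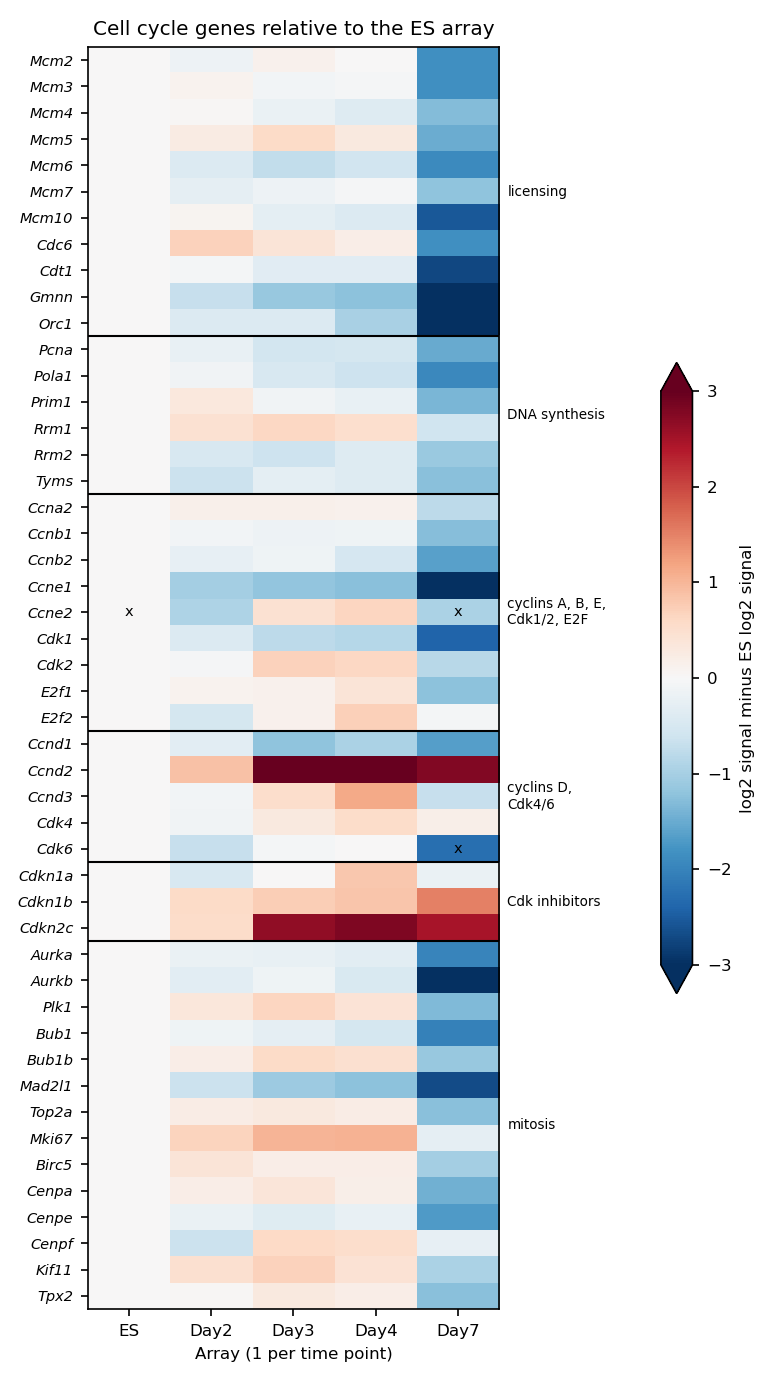
Log2 signal of each of the 48 genes (rows, grouped by role) on each of the 5 arrays (columns) minus its ES value; colours end at 3 either way, so larger changes such as Ccnd2 at Day4 (5.62) appear at the end colour, and x marks a value not well above background. The first 4 columns are mostly pale and the Day7 column is blue for most genes outside the D cyclins and Cdk inhibitors.

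The early steps moved few members. From ES to Day2, 1 of 48 genes fell (Ccne1, -1.03) and 0 rose, where 11.3% of all genes fell and 10.7% rose. From Day2 to Day3, 0 fell and 4 rose (Ccnd2 by 2.43, Cdkn2c by 2.12, Ccne2 by 1.38 and Cenpf by 1.24 on the log2 scale), where 7.76% of all genes fell and 13.0% rose. Ccne2, Cdkn2c and Cenpf were at Day2 below the 95th percentile of the ERCC probes, and with that level as the floor only Ccnd2 counted as raised. The sign of the Ccne2 change turned with the scaling, to -0.64 with the 75th percentile shift and -0.67 with the housekeeping shift. From Day3 to Day4, 0 fell and 1 rose (Ccnd2, 2.32), where 4.87% of all genes fell and 3.62% rose, and 43 members moved by less than 0.5. Over the whole interval from ES to Day4, 3 fell and 4 rose, where 14.4% of all genes fell and 17.0% rose.

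The 3 that fell from ES to Day4 were Ccne1 (-1.26), Gmnn (-1.23) and Mad2l1 (-1.23), and the 4 that rose were Ccnd2 (5.62), Cdkn2c (2.79), Ccnd3 (1.14) and Mki67 (1.05). With a shift of every array by its 75th percentile in place of quantile normalization, 9 members fell and 2 rose over this interval, with a median of -0.38. Of 15838 genes with a value, 2967 fell and 2506 rose under that scaling, so falls were about as frequent among all genes. The same scaling gave 41 falls and 0 rises from Day4 to Day7 with a median of -1.49, and 38 falls from ES to Day7 with a median of -1.97. Over all genes it gave 3358 falls of 16082 (median -0.25) and 5112 of 15838 (median -0.35) for these intervals.

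**Figure D3:**
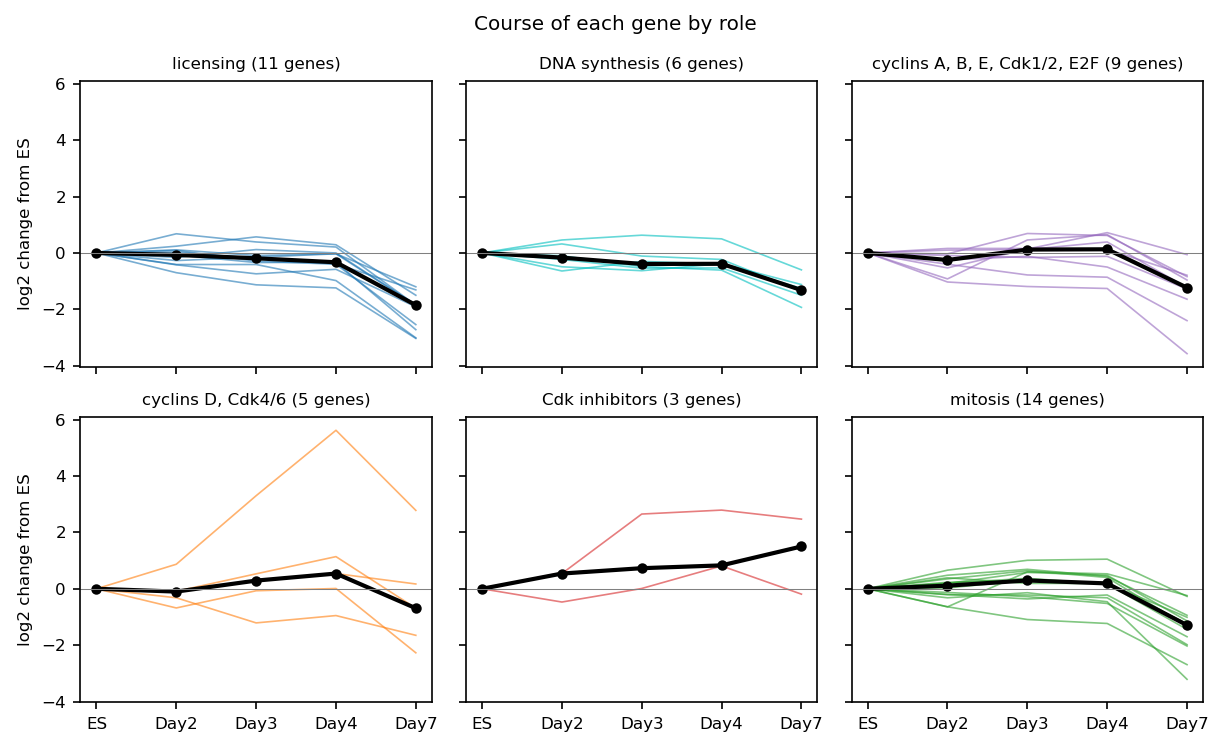
Log2 change from the ES array (vertical axis) at each of the 5 time points (horizontal axis), 1 panel per role, with a thin line per gene and a thick black line for the median of the role. Medians at Day7 were -1.85 for licensing, -1.32 for DNA synthesis, -1.23 for cyclins A, B and E with Cdk1, Cdk2 and E2F, -0.70 for D cyclins with Cdk4 and Cdk6, 1.51 for Cdk inhibitors and -1.29 for mitosis.

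Licensing genes fell together at Day7. All 11 were lower at Day7 than on every earlier array, 10 of 11 fell at least 2-fold from Day4 with a median of -1.81, and all 11 were at least 2-fold below ES, with a median of -1.85. Mcm2, a subunit of the replicative helicase, gave log2 signals of 14.40, 14.24, 14.52, 14.40 and 12.56 at ES, Day2, Day3, Day4 and Day7. The first 4 arrays span 0.28 and Day7 lies 1.84 below Day4, a 3.57-fold fall. The other helicase subunits were also lowest at Day7, with spans over the first 4 arrays of up to 0.74 (Mcm6). Mcm3 read 15.32, 15.43, 15.23, 15.29 and 13.47 in the same order, and Mcm5 read 14.70, 14.94, 15.27, 14.99 and 13.20. Mcm6 was highest at ES, with 16.52, 16.10, 15.78, 15.94 and 14.61. Mcm7 fell the least of those called, from 15.86 at Day4 to 14.69 at Day7 (-1.17), and Mcm4 did not reach 2-fold from Day4 (14.79 to 13.87, -0.92), although it did from ES (-1.31).

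The falls of Cdt1, Cdc6, Orc1 and Mcm10 from Day4 lay between -2.04 and -2.39 on the log2 scale. Cdt1, the loading factor that is degraded once S phase begins, gave 15.12, 15.05, 14.78, 14.79 and 12.40, a 5.24-fold fall from Day4. Cdc6, its partner in loading, gave 11.07, 11.75, 11.46, 11.28 and 9.22 (-2.06 from Day4). Its other probe gave -1.52 for that step. Orc1, the subunit of the origin recognition complex whose level changes with the cycle, gave 10.74, 10.33, 10.33, 9.76 and 7.73 (-2.04). Mcm10, which helps activate the loaded helicase, gave 13.90, 13.99, 13.61, 13.50 and 11.36 (-2.14). With the housekeeping shift Cdc6 (-1.64), Orc1 (-1.71) and Mcm10 fell by less than 4-fold from Day4, as did Cdc6 (-1.92) and Orc1 (-1.72) with the normexp background correction. Gmnn, which encodes geminin, the inhibitor of Cdt1, was the licensing gene already 2-fold below ES at Day4. Its log2 signals were 13.28, 12.58, 12.15, 12.04 and 10.25, so that Day4 was already 2.35-fold below ES and Day7 was 8.12-fold below ES.

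A list of 17 other origin licensing and firing genes gave 10 that fell at least 2-fold and 0 that rose from Day4 to Day7, with a median of -1.04. Other subunits of the origin recognition complex changed less than Orc1, with -1.04 for Orc2, -0.47 for Orc3, 0.47 for Orc4, -0.25 for Orc5 and -0.52 for Orc6, genes named after their values were seen. The largest fall was that of Cdc45, a partner of the active helicase, from 9.49 to 7.11 (-2.37).

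Genes for DNA synthesis and nucleotide supply were split at the size rule. From Day4, 3 of 6 fell at least 2-fold, with a median of -1.03, and 5 of 6 were at least 2-fold below ES. All 6 were lowest at Day7. Pola1, the catalytic subunit of the polymerase that primes synthesis, gave 12.35, 12.25, 11.87, 11.74 and 10.42, and Prim1, the primase subunit that works with it, gave 13.81, 14.13, 13.70, 13.58 and 12.44. Rrm1, the large subunit of ribonucleotide reductase, was highest at Day3, with 13.50, 13.96, 14.13, 14.00 and 12.90. It fell 2.14-fold from Day4 and ended 1.51-fold below ES. The other subunit of that enzyme, Rrm2, gave 15.88, 15.39, 15.25, 15.50 and 14.76 and did not fall 2-fold from Day4 (-0.74). Pcna, the sliding clamp of the polymerases, fell just short of the size rule from Day4 (15.48 to 14.51, -0.97), and Tyms, thymidylate synthase, changed by -0.88.

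Under the 75th percentile scaling 5 of these 6 genes passed 2-fold from Day4, among them Pcna (-1.21) and Rrm2 (-1.01). With the housekeeping shift the genes called after quantile normalization all fell short of 2-fold, at -0.89 for Pola1, -0.79 for Prim1 and -0.77 for Rrm1. In a list of 25 other replication fork and nucleotide genes, 20 fell at least 2-fold and 0 rose from Day4 to Day7, with a median of -1.48. Chaf1a, the large subunit of the histone chaperone that follows the fork, had the largest fall there, from 13.24 to 11.09 (-2.16).

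Among the S phase and mitotic cyclins, their kinases and E2F factors, 6 of 9 fell at least 2-fold from Day4, with a median of -1.16. Ccne1 had the largest change from ES. Cyclin E1, its product, drives entry into S phase with Cdk2 and is known to be high throughout the cycle of ES cells. Its log2 signals were 16.20, 15.17, 15.01, 14.94 and 12.63. By Day7 it was 11.8-fold below ES, the largest fall of the 47 genes with a value. The drop before Day4, 2.04-fold from ES to Day2, rests on the brightest probe. The other probe of the gene gave -0.29 for ES to Day2, -0.34 for ES to Day4 and -3.31 for ES to Day7. The related Ccne2 was dim, with 4.84, 3.92, 5.30, 5.49 and 3.88, and since it was not well above background at ES and Day7, its fall from Day4 was at least 1.79-fold against the lowest detected signal on the Day7 array.

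Cdk1, the kinase of mitosis, was lower on each later array, with 13.62, 13.22, 12.84, 12.76 and 11.22, and Day7 was 5.27-fold below ES. Its 2 less bright extra probes gave -3.43 and -1.04 for ES to Day7 where the brightest gave -2.40, so the size of that fall differed between probes and its direction did not. From Day4 to Day7 the least changed probe gave -0.84, short of 2-fold, against -1.54. From Day2 to Day3 the probes differed in sign, with 0.75 on an extra probe against -0.38. Cdk2, the kinase of S phase, was higher at Day3 and Day4 than before, with 10.34, 10.31, 11.03, 10.96 and 9.50, a 2.74-fold fall from Day4. The mitotic cyclins Ccnb1 (14.74, 14.65, 14.58, 14.62 and 13.46) and Ccnb2 (14.74, 14.49, 14.62, 14.24 and 13.10) were flat to Day3 and lowest at Day7, with falls from Day4 of 2.24-fold and 2.20-fold. With the housekeeping shift both falls from Day4 were short of 2-fold (-0.91 for Ccnb1 and -0.83 for Ccnb2). Another probe of Ccnb1 gave -2.46 for ES to Day7 against -1.28 for the brightest. Ccna2, cyclin A2, spanned only 13.78 to 13.94 on the first 4 arrays and was 12.99 at Day7 (-0.92).

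The factors that drive these genes moved unequally. E2f1, an activator of S phase genes, gave 11.39, 11.49, 11.51, 11.78 and 10.16, a 3.07-fold fall from Day4. E2f2, another activator, was highest at Day4 and close to its ES level at Day7, with 10.47, 9.94, 10.61, 11.19 and 10.41. Of 8 other E2F and DP factors, 3 fell at least 2-fold from Day4 and 0 rose, with a median of -0.75, and the largest fall was that of E2f4, which acts mainly as a repressor in non-dividing cells, from 11.16 to 8.88 (-2.28).

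The D cyclins, which link growth signals to the first gap phase, differed among themselves before Day4. Ccnd2 rose from 9.79 at ES to 10.66, 13.09 and 15.41 at Day2, Day3 and Day4 and was 12.57 at Day7. Its rise to Day4 was 49.1-fold, the largest change of any member over any interval compared, and it then fell 7.15-fold while staying 6.87-fold above ES. Ccnd3 rose from Day2 on, with 14.14, 14.05, 14.67, 15.28 and 13.45, and fell 3.57-fold after Day4. Ccnd1 went the other way, with 13.42, 13.10, 12.21, 12.47 and 11.77, so that Day7 was 3.14-fold below ES. Under the 75th percentile scaling Ccnd3 no longer passed 2-fold from ES to Day4, whereas Ccnd2 did.

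Their kinases differed as well. Cdk4 gave 15.96, 15.86, 16.25, 16.50 and 16.13, within 2-fold throughout on its brightest probe. Another probe of the gene gave 14.08, 14.47, 15.21, 15.40 and 14.78, a change of 1.32 from ES to Day4 that passes 2-fold. The small change of the brightest probe from ES to Day7 turned sign with the scaling, at 0.18 here and -0.79 with the 75th percentile shift. Cdk6 was dim on the first 4 arrays, with 6.65, 5.97, 6.58 and 6.66, and was not well above background at Day7, so its fall has only a bound that moves with the floor. Against the lowest detected signal on that array it was at least 4.02-fold (-2.01), against the ERCC level the log2 change was -1.76, and after normexp background correction it was -0.84. At Day4 the D cyclin group held 4 of the 10 members whose highest array was Day4, namely Ccnd2, Ccnd3, Cdk4 and Cdk6. For Cdk6 this was no peak, with 6.66 at Day4 and 6.65 at ES.

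**Figure D4:**
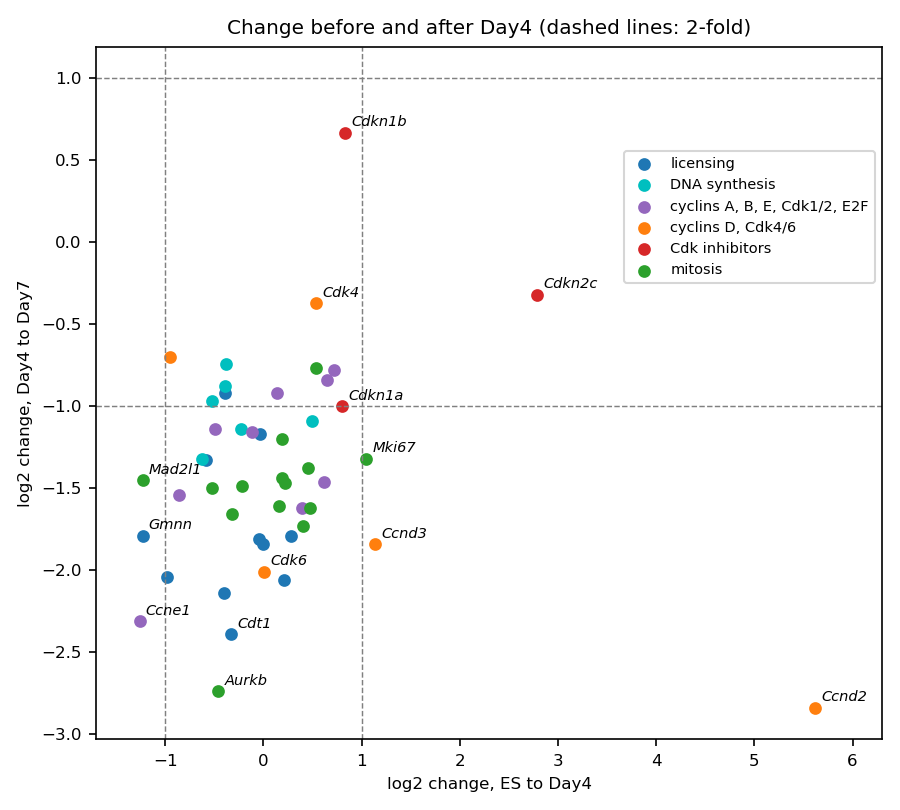
Log2 change from ES to Day4 (horizontal axis) against log2 change from Day4 to Day7 (vertical axis), 1 point per gene coloured by role, with dashed lines at 2-fold. Most points lie in the band within 2-fold of 0 before Day4 and below -1 after it, Ccnd2 lies far right at 5.62 and -2.84, and Cdkn1b is the sole point above 0 on the vertical axis (0.67). The axes share the Day4 array, so an error on it moves a point along a diagonal.

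None of the 3 Cdk inhibitors fell 2-fold from Day4 after quantile normalization (1, Cdkn1a, did with the 75th percentile shift), and 2 of the 3 were at least 2-fold above ES at Day7. Cdkn1b, the inhibitor p27 known for holding newborn neurons out of the cycle, gave 11.34, 11.91, 12.07, 12.17 and 12.84. Each array was above the one before, and Day7 was 2.84-fold above ES, although the last step (1.60-fold) was below the size rule. Cdkn2c, an inhibitor of Cdk4 and Cdk6, rose earlier, with 5.64, 6.18, 8.29, 8.43 and 8.11. Its ES and Day2 values were under the 95th percentile of the ERCC controls on those arrays, which was 6.61 at ES. With that level as the floor, the change from ES to Day4 was 1.82 in place of 2.79, and the change from ES to Day7 was that from 6.61 to 8.11 in place of 2.47. From ES to Day7 the normexp background correction gave 1.67 and the housekeeping shift 3.27. Cdkn1a, a target of p53, gave 11.29, 10.82, 11.30, 12.10 and 11.10, with a fall from Day4 that lay just under 2-fold. Its brightest probe was printed on 10 spots per array, with an SD between spots of 0.026 to 0.054 (log2), which covers variation within an array only. The other probe of Cdkn1a disagreed, with -1.62 from Day4 to Day7, -0.27 for ES to Day4 against 0.80, and -1.88 for ES to Day7 against -0.19.

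Across 16 other Cdk inhibitors, pocket proteins and antiproliferative genes, as many rose as fell from Day4 to Day7, 6 in each direction, with a median of -0.39. Those that rose included Cdkn1c, from 13.56 to 15.32 (1.76), Rb1, the retinoblastoma protein gene, from 10.42 to 11.74 (1.33), and Ccng2, an unusual cyclin linked to arrest, from 6.55 to 8.32 (1.77, the largest rise). Cdkn2a had the largest fall, from 12.32 to 9.64 (-2.68). Cdkn1c and Rb1 were named after their values were seen. With the 75th percentile scaling 4 rose and 6 fell. Cdk5, a kinase of this family that acts in neurons after they leave the cycle, rose from 10.58 at Day4 to 11.80 at Day7 (1.21), and its activator Cdk5r1 rose from 10.01 to 15.58, a 47.5-fold rise. The other activator, Cdk5r2, was not well above background at Day4 and gave 7.36 at Day7, a rise of at least 3.30 against the lowest signal well above background on the Day4 array.

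Genes of mitosis fell as a block. From Day4, 13 of 14 fell at least 2-fold with a median of -1.48, and 11 of 14 were at least 2-fold below ES, with a median of -1.29. Aurkb, the kinase of the chromosomal passenger complex, gave 8.77, 8.45, 8.63, 8.31 and 5.56, a 6.70-fold fall from Day4 and 9.24-fold from ES. After normexp background correction the fall of this dimmer probe from Day4 was smaller, -1.67 against -2.74. Aurka, which acts at the spindle poles, gave 14.82, 14.61, 14.60, 14.50 and 12.84 (-1.66 from Day4). Plk1, a kinase needed to enter and complete mitosis, was highest at Day3, with 15.14, 15.49, 15.78, 15.54 and 13.81, and fell 3.31-fold from Day4. The first 4 arrays of Aurkb span 0.46 and those of Aurka 0.32, well under the distance to Day7.

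The spindle checkpoint genes also ended below every earlier array. Bub1 gave 12.98, 12.85, 12.70, 12.46 and 10.95, with an SD of 0.036 to 0.084 between its 10 spots per array, and Bub1b gave 12.18, 12.37, 12.76, 12.66 and 11.04. Mad2l1 gave 14.62, 13.98, 13.53, 13.39 and 11.93, each array lower than the one before on the brightest probe. Its early fall rests on the brightest probe, since 2 other probes gave 1.91 and 0.39 for ES to Day2 against -0.64 (the first of these then fell from 11.52 to 10.03 at Day3, against a change of -0.45), 0.34 and 0.44 for ES to Day4 against -1.23, and -1.57 and -1.29 for ES to Day7 against -2.69.

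Mki67, the gene of the proliferation marker Ki67, gave 14.07, 14.73, 15.08, 15.12 and 13.80, so that Day4 was 2.07-fold above ES and Day7, after a 2.50-fold fall, was 1.21-fold below ES. With the 75th percentile scaling the rise to Day4 was 0.55 on the log2 scale, short of 2-fold, and Day7 was -0.96 from ES. Top2a, the topoisomerase that untangles sister chromatids, gave 13.07, 13.30, 13.36, 13.29 and 11.82 (-1.47 from Day4). Birc5, or survivin, a partner of Aurora B, gave 15.40, 15.79, 15.59, 15.59 and 14.39, a 2.30-fold fall from Day4. For Top2a and Birc5 the sign of the small change from ES to Day4 depended on the scaling, at 0.22 and 0.19 here and -0.20 and -0.33 with the 75th percentile shift. It also turned for Plk1 (0.40 to -0.11), Cenpa (0.16 to -0.33) and Tpx2 (0.19 to -0.25). Outside the mitotic group it turned for Mcm5 (0.28 to -0.22) and Ccna2 (0.14 to -0.35).

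The kinetochore and spindle genes were lower at Day7 than at Day4 by 1.71-fold (Cenpf, short of the size rule) to 3.05-fold (Cenpa). Cenpa, the histone variant of centromeres, gave 13.73, 13.93, 14.10, 13.90 and 12.29, and Cenpe, a kinetochore motor, gave 14.15, 13.95, 13.79, 13.93 and 12.45. Kif11, the motor that separates spindle poles, gave 10.96, 11.44, 11.65, 11.40 and 10.02, and Tpx2, an activator of Aurora A, gave 13.19, 13.22, 13.49, 13.38 and 11.94. All 4 were lowest at Day7. With the housekeeping shift the fall of Kif11 from Day4 was short of 2-fold (-0.95). From ES to Day7 Tpx2 changed by -1.25 on its brightest probe and by -0.54 on its least changed one. Cenpf was the mitotic gene that did not pass the size rule, with 7.07, 6.43, 7.67, 7.60 and 6.83 (-0.77 from Day4), and its Day2 value was under the level of the ERCC controls. Among 42 other mitosis genes, 27 fell at least 2-fold and 0 rose from Day4 to Day7, with a median of -1.22, and Espl1, or separase, the protease that splits sister chromatids, had the largest fall, from 12.15 to 9.66 (-2.49).

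In all, 13 genes did not fall 2-fold from Day4 to Day7. Besides the inhibitors Cdkn1b (0.67), Cdkn2c (-0.32) and Cdkn1a (just under 2-fold), they were Cdk4 (-0.37), Ccnd1 (-0.70), Rrm2 (-0.74), Cenpf (-0.77), E2f2 (-0.78), Ccne2 (-0.84, a lower bound on the size of its fall), Tyms (-0.88), Mcm4 (-0.92), Ccna2 (-0.92) and Pcna (-0.97). All but Cdkn1b had a negative change. Where a gene had extra probes (16 probes of 11 genes), every one had a negative change from Day4 to Day7, 13 of the 16 of at least 2-fold, and each lay within 1 of the brightest probe on the log2 scale. The change on these probes minus that on the brightest probe of the same gene had a median of -0.37. Of these 16 probes, all had the sign of the brightest probe from ES to Day7 too, whereas 12 did from ES to Day2 and from ES to Day4, 9 from Day3 to Day4 and 10 between Day2 and Day3. Besides the cases named above for Cdk1, Cdkn1a and Mad2l1, opposite signs were seen for extra probes of Cdc6, Ccnb1, Ccne1, Ccnd3, Cdk1, Cdk4, Mad2l1, Mki67 and Birc5, with changes of less than 0.5 on both probes.

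The size of the falls moved with the way the arrays were scaled. From Day4 to Day7 the median over the 48 genes was -1.45 after quantile normalization, -1.49 after the 75th percentile shift, -1.41 after normexp background correction and -1.07 after a shift to 11 housekeeping genes, with 35, 41, 34 and 29 genes lowered. Without any normalization it was -0.17 with 5 genes lowered, on a scale where the median of all genes rose by 1.06 between these arrays. ES and Day7 differed little in overall brightness (all genes 0.01 without normalization), and there the median of the members was -1.61 with 35 genes lowered. The housekeeping genes themselves had a median of 0.05 from Day4 to Day7 after quantile normalization and -0.44 after the 75th percentile shift.

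**Figure D5:**
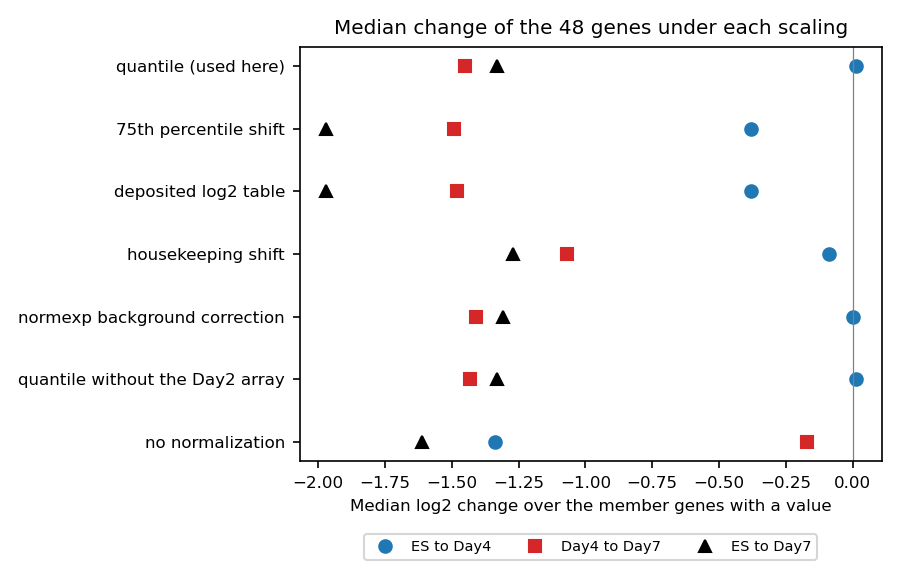
Median log2 change over the 48 genes (horizontal axis) for ES to Day4 (circles), Day4 to Day7 (squares) and ES to Day7 (triangles; 47 genes after quantile normalization), with 1 line per way of scaling the arrays. Medians for ES to Day7 lie between -1.97 and -1.27 under every scaling shown, whereas without normalization the Day4 to Day7 median is -0.17 and the ES to Day4 median is -1.34.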

How the data were processed

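RNA from 5 samples (ES, Day2, Day3, Day4 and Day7; 1 array each) was hybridised as Cy3-labelled cRNA. For every array the authors deposited scanner output (Agilent Feature Extraction 10.5.1, per the labels), which holds spot intensity after background subtraction and detrending, with flags for background, saturation and outliers. The authors also deposited a table of log2 values. For at least 99.99% of probes on each array it equalled log2 of the processed intensity minus a constant per array, within 0.01. Groups came from the labels, and columns of no sample numbered 0.

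Log2 intensities of non-control, non-outlier spots were averaged per probe and quantile-normalized (limma 3.58.1, R 4.3.3). The legend of the study's heat map of these arrays names Quantile analysis and gives no further detail. Later steps used Python 3.11.15, numpy 2.4.6 and pandas 2.3.3, and matplotlib 3.10.9 drew the plots. Of 55681 probes, 26300 matched RefSeq accessions (GRCm38.p6, used for names) of 19897 genes, of which 5339 had more than 1 probe. A probe was detected where at least 0.5 of its spots were flagged well above background. An undetected value was set at the higher of itself and the lowest detected value on that array, which gives "at least" folds. A gene undetected on both arrays was left without a value, and one whose detected side lay under that level was entered at a change of 0.

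The members and lists were chosen with earlier results of these data known. Text names all 48 members, the largest fall and rise from Day4 to Day7 of at least 2-fold in each other pathway list, and extra probes that differ from the brightest in direction or by over 1. Mnx1 and Polr2a, on the marker lists, had no matched probe. The steps were tested on simulated data built on the ES array (19897 genes, ES to Day2), where all 200 seeded changes were recovered and 0 other genes were called. This checks the steps and does not measure false calls between real single arrays. Alternatives were other scalings (75th percentile, housekeeping genes, none, the deposited log2 table), normexp with offset 50, other detection rules and floors, other probe rules, and size rules of 1.5-fold and 4-fold. The normexp alternative was meant for mean signals but used the median signal of each spot. Precision is limited by 1 array per time point, and a fold change here rests on the pair of arrays alone.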

Additional observations from a re-analysis of the deposited data

Results flagged for a closer look

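The ERCC control probes are spike-in controls outside the comparisons of mouse genes. There are 96 of them, and 66.7% passed the background flag on the Day2 array, against 8.33% at ES, 4.17% at Day3, 9.38% at Day4 and 7.29% at Day7. The labels do not say whether a spike-in was added. The 95th percentile of these probes was 7.39 on the log2 scale at Day2, and 4 members lay below it there: Ccne2, Cdk6, Cdkn2c and Cenpf. At ES it was 6.61, with Ccne2 and Cdkn2c below it, and at Day7 it was 4.90, with Ccne2 and Cdk6 below it. With the Day2 array left out of the quantile normalization, 35 members counted as lowered from Day4 to Day7 (median -1.43) and 34 from ES to Day7 (median -1.33). That alternative was chosen after seeing the data.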

How the results depend on the processing

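No paired analysis was possible because there was a single array for every time point, and for the same reason no array could be left out of a time point and no slide block could be fitted. The count of 35 members lowered from Day4 to Day7 ran from 29 to 41 under every scaling, detection and probe rule except no normalization, which gave 5 (median -0.17, 1 raised). That of 34 lowered from ES to Day7 ran from 30 to 38 under all of them. At 4-fold the counts were 8 and 9, and at 1.5-fold 1 member (Cdkn1b) was raised from Day4 to Day7. The ES to Day7 median was -1.97 with the 75th percentile shift and the deposited table. From ES to Day4 (3 lowered, 4 raised), both gave 9 and 2, no normalization 31 and 2 (median -1.34), the housekeeping shift 5 and 2, 1.5-fold 7 and 9, and 4-fold 0 and 2. The mean over probes and the probe with the smallest change each gave 1 lowered. From Day2 to Day3 (0 lowered, 4 raised), the 75th percentile shift, the deposited table, the housekeeping shift, normexp and a 4-fold threshold left 2 raised, the ERCC floor 1, and 1.5-fold gave 1 lowered and 8 raised. No normalization gave 12 lowered and 1 raised (median -0.73). From Day3 to Day4, no normalization gave 1 lowered, and 1.5-fold 3 raised. From ES to Day2 (1 lowered, 0 raised), the 75th percentile shift and the deposited table gave 3 and 1, no normalization and the housekeeping shift 3 raised, 1.5-fold 6 and 3, and normexp, both probe rules and 4-fold 0 lowered.

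Signs were compared here only for member changes of at least 2-fold after quantile normalization. Smaller changes that turned, such as those of Top2a, Birc5 and Cdk4 above, are not in this list. Signs turned for Ccne2 from Day2 to Day3 (-0.64 with the 75th percentile shift and the deposited table, -0.67 with the housekeeping shift, -1.38 without normalization) and for Mad2l1 from ES to Day4 with its probe of smallest change (0.34). Without normalization they also turned for Cenpf from Day2 to Day3 (-0.37), for Pola1 (0.02), Prim1 (0.12), Rrm1 (0.14) and Ccnb2 (0.07) from Day4 to Day7, and for Ccnd3 (-0.31) and Mki67 (-0.41) from ES to Day4. The median of all genes then moved by 1.06 from Day4 to Day7, -1.06 from ES to Day4 and -0.81 from Day2 to Day3. The cause of these changes was not tested.

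The share of raised among all changed genes moved with the scaling (quantile, 75th percentile, none, housekeeping): ES to Day2 48.7%, 74.9%, 85.4% and 92.2%, Day2 to Day3 62.6%, 25.5%, 3.48% and 23.8%, Day3 to Day4 42.6%, 49.1%, 20.1% and 40.1% (normexp 53.0%), Day4 to Day7 49.9%, 44.4%, 94.0% and 66.5%, ES to Day4 54.1%, 45.8%, 9.53% and 64.4%, and ES to Day7 50.4%, 40.5%, 54.7% and 68.3%.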
